A study of Mus musculus with 6 samples.

Results

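Skeletal muscle is kept by a small set of regulators. This account follows 10 of them in mouse femoral bone: the satellite cell factor Pax7, the myogenic regulatory factors Myf5, Myod1, Myog and Myf6, the atrophy ubiquitin ligases Fbxo32 and Trim63, and the muscle-secreted factors Mstn, Fndc5 and Il15. They were taken by gene symbol from tables of 55484 genes, and all 10 were found, each in 1 row. The 6 samples came from male wild-type C57BL/6 mice on normal chow that were 12 weeks old. In the sedentary group (3 samples) each mouse lived alone in a cage without a wheel for 6 weeks, from 6 weeks of age. In the wheel running group (3 samples) each mouse had free access to a running wheel over the same time. The question is how the femur's transcripts differ after weeks of voluntary running. Polyadenylated RNA was sequenced. The tables give each group's level as a single FPKM, a fragment count scaled to transcript length and library size. It comes with the bounds of an interval of unstated level, and the spread between mice is unknown.

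In textbook myogenesis, Pax7 marks the resting satellite cells of adult muscle. Myf5 and Myod1 commit these cells, Myog drives their differentiation into fibres, and Myf6 is the factor of the group that mature fibres keep. Fbxo32 (atrogin-1) and Trim63 (MuRF1) are ubiquitin ligases that FoxO factors and glucocorticoids induce in wasting muscle. Mstn (myostatin) is a secreted brake on muscle growth, Fndc5 is the precursor of irisin, and Il15 is a cytokine that muscle, stroma and macrophages make and that natural killer cells depend on.

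RefSeq promoter sequences (GRCm38.p6, 250 bases before to 50 after the start) were held for 6 of the 10 genes. Those of Myog, Mstn and Trim63 are shown because these 3 genes had the largest relative difference, the smallest p and the atrophy role, in that order. Each is printed 5′ to 3′ on the plus strand, from chr1:134289754-134290053 for Myog, chr1:53061390-53061689 for Mstn and chr4:134314870-134315169 for Trim63. Capitals mark E-boxes, the CANNTG element that myogenic regulatory factors bind, and in Trim63 also the FoxO element GTAAACA, which stands there on the other strand as TGTTTAC.
Myog: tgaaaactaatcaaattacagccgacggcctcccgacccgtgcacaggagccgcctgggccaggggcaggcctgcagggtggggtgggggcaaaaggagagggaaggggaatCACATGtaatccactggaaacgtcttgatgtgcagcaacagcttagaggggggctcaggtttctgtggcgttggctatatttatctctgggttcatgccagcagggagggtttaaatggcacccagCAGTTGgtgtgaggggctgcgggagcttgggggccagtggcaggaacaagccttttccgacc
Mstn: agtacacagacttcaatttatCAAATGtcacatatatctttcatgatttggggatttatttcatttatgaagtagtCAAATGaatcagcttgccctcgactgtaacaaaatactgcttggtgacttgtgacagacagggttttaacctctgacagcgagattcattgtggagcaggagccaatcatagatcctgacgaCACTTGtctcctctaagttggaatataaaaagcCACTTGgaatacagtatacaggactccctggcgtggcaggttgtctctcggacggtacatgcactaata
Trim63: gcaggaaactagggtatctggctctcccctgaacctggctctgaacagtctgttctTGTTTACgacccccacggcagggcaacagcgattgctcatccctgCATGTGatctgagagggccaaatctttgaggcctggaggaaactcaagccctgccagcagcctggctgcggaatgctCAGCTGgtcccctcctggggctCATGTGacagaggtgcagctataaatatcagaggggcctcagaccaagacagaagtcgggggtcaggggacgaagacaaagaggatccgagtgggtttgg
Searched on both strands, CANNTG occurred 2 times in the Myog promoter, 4 times in that of Mstn and 3 times in that of Trim63. It was present in 72.3% of 32544 promoters of the same length. The windows of Myf5, Pax7 and Fndc5 held no CANNTG. The FoxO element was found in 3.66% of all promoters and, among the 6 genes, in that of Trim63, at bases -194 to -188 from the start. A match describes the letters and shows no binding.

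The labelled tissue and the presence of muscle were read from marker lists. The 12 bone cell markers summed to 7001 FPKM in sedentary and 7471 FPKM in running mice, with Bglap (osteocalcin) at 3157 and 3184 FPKM. All 11 that were tested had a positive log2 fold (median 0.24), 6 had an unadjusted p under 0.05 in the authors' deposited table, and 2 were called higher. These were the osteocyte genes Mepe, at 98.4 and 137 FPKM, and Sost, at 47.4 and 66.2 FPKM. Pdpn, which osteocytes are known to express, is listed at 0 in both groups. All 18 fast fibre markers were present and summed to 2356 and 2811 FPKM, led by Tnnt3 (366 and 445 FPKM) and Acta1 (278 and 336 FPKM). The 10 slow fibre markers summed to 716 and 721 FPKM. The fast fibre list also holds genes that slow fibres express, such as Acta1, Ckm, Ryr1, Tcap, Ttn and Neb. On the slow fibre list, Tpm3 and Atp2a2 are also expressed outside muscle. The 12 neutrophil markers, from marrow or blood, summed to 53399 and 45368 FPKM with none called and 1 lower at an unadjusted p under 0.05 in the authors' deposited table. All 12 had a negative log2 fold (median -0.18). Skeletal muscle transcripts were thus present in the bone samples of both groups, and the labels do not say how adherent muscle was handled. In bulk RNA, fewer cells of a type and less RNA per cell cannot be told apart. In the 15508 genes that the authors tested, 0.941% had a q under 0.05 in the authors' deposited table, the rule for a call here. Calls higher in running mice made up 0.445% and calls lower 0.497%. The median log2 fold of all tested genes was -0.01. Log2 folds compare running with sedentary mice after 0.1 was added to each FPKM, so those of low genes are understated. Depths estimated from the steps between the lowest FPKM were 14300000 to 16500000 fragments for the sedentary and 13800000 to 17400000 for the running libraries, taking each group's FPKM as an average over 3 scaled libraries.

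None of the 10 genes was called between running and sedentary mice. The authors tested 5 of them (Myf6, Trim63, Mstn, Fndc5 and Il15) and marked the other 5 as not tested. In the authors' deposited table, 1 of the 5, Mstn, had an unadjusted p under 0.05, against 5.65% of all tested genes. No other tool could be run on pooled values. Of the 5 tested genes 4 had a positive log2 fold, against 48.2% of all tested genes. For none of the 10 were the intervals of both groups apart, as they were for 0.574% of tested genes.

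**Figure D1:**
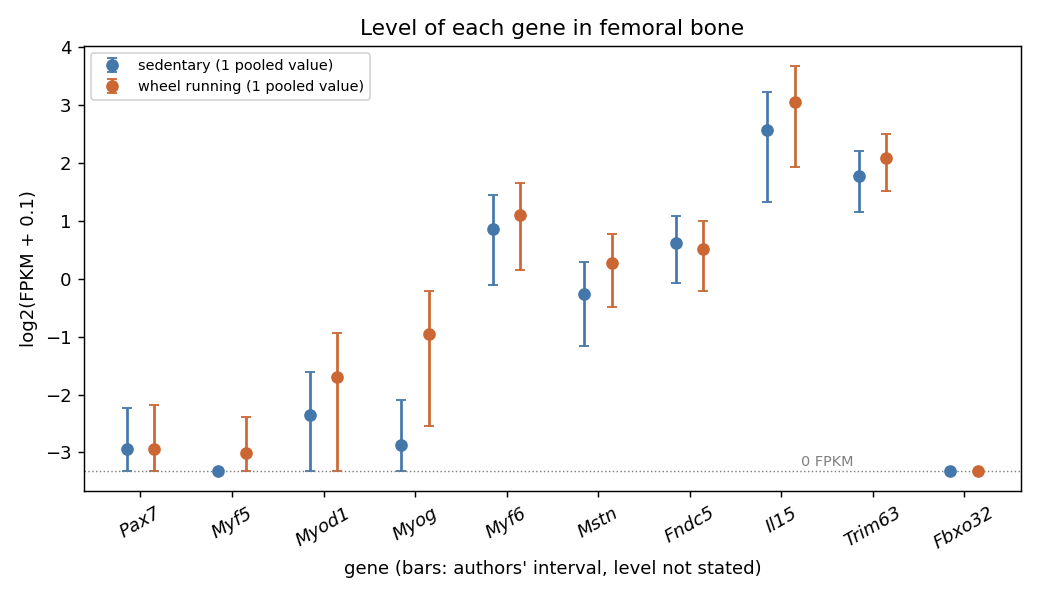
Level of each of the 10 genes as log2(FPKM + 0.1) in sedentary (blue) and wheel running (orange) mice; points are 1 pooled value per group and bars the authors' interval, with 0 FPKM as a dotted line. Il15 and Trim63 stand highest, Pax7 and Myf5 near 0, Fbxo32 at 0, and Myog shows the widest distance between groups, from 0.0372 to 0.417 FPKM.

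The myogenic regulators were low, and Myf6 stood far above the rest. Myf6 (chromosome 10, 107492853 to 107494737, minus strand) had 1.72 FPKM (interval 0.824 to 2.61) in sedentary and 2.03 FPKM (1.01 to 3.06) in running mice. These levels rest on about 78 and 98 fragments, and its log2 fold was 0.23, with q = 0.9997 in the authors' deposited table. The intervals overlapped over most of their length. Myf5, its neighbour 6718 bp away on the same strand (107482908 to 107486134), was listed at 0 FPKM in sedentary and at 0.0238 FPKM (0 to 0.0912) in running mice. That is 0 and about 2 fragments. A count of 0 allows up to 3 fragments, or 0.0363 FPKM, so no fold is given for Myf5. The adjacent pair thus held the most and the least abundant of the 4 regulatory factors, and in both groups their intervals did not overlap.

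Myog differed most between the groups in relative terms, but the authors did not test it. Myog (chromosome 1, 134289989 to 134292548, plus strand) was listed at 0.0372 FPKM (0 to 0.134) in sedentary and at 0.417 FPKM (0.0717 to 0.762) in running mice. The intervals overlapped between 0.0717 and 0.134 FPKM. Its single annotated transcript of 1495 bases makes these levels about 2 and 25 fragments. The sedentary value lies below the floor of 3 fragments, 0.0536 FPKM, a level that a count of 0 would also allow. The depth-scaled ratio of 11.7 is therefore loosely set, with an exact 95% interval of 2.92 to 102, which covers counting error only. Whether 1 mouse or all 3 running mice gave the 25 fragments cannot be read from a pooled value. Among 1978 single-transcript genes over 600 bp with 1 to 3 fragments in sedentary mice, Myog alone reached 25 fragments in running mice. In the other direction 0 of 2026 did so. Among the protein-coding genes of this kind, it was 1 of 373, Myog, and 0 of 343 in the other direction. The level of 25 was set by Myog itself, so these counts are a description.

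Myod1 and Pax7 were close to the limit of detection. Myod1 (chromosome 7, 46376474 to 46379099, plus strand) was listed at 0.0958 FPKM (0 to 0.228) in sedentary and at 0.207 FPKM (0 to 0.420) in running mice. At about 7 and 16 fragments, its depth-scaled ratio was 2.14, with an exact 95% interval of 0.833 to 6.15 for counting error, which includes 1. Pax7 (chromosome 4, 139737062 to 139833528, minus strand) stood at 0.0304 FPKM (0 to 0.113) and 0.0309 FPKM (0 to 0.121). Depending on which of its 2 transcripts is counted, that is about 2 to 8 fragments in each group. A difference in Pax7 was not detectable at this depth.

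Of 23 other genes of the myogenic programme, 17 were tested and none was called, with a median log2 fold of 0.11. At an unadjusted p under 0.05 in the authors' deposited table, 3 were higher and none was lower. The most expressed were Id3, at 104 and 123 FPKM in sedentary and running mice, and Id2, at 62.0 and 64.6 FPKM. Both encode inhibitors of basic helix-loop-helix factors, and many other cell types express them. The largest positive log2 fold was that of Cav3, the caveolin of muscle membrane, at 1.06 and 1.79 FPKM (log2 fold 0.71, q = 0.760 in the authors' deposited table). The largest negative one among the tested genes was that of Met, the hepatocyte growth factor receptor, at 3.40 and 3.17 FPKM. Des, which encodes the intermediate filament desmin and was chosen after its values were seen, stood just outside the threshold. It had 27.1 FPKM (21.5 to 32.7) and 36.1 FPKM (28.7 to 43.6), with q = 0.0517 in the authors' deposited table. Mymx, a fusion peptide of myoblasts, was listed at 0 in both groups, and Mymk, its partner in fusion, at 0 and 0.0202 FPKM.

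Endplate genes are targets of the myogenic factors, and the list joins them with genes that respond to loss of innervation. Of 13 on the list, 7 were tested: Chrnb1, Dok7, Hdac4, Hdac9, Gadd45a, Runx1 and Ncam1. None was called, with a median log2 fold of 0.01 that turned to -0.0028 over members with FPKM of at least 1. This median describes the mixed list and not the endplate genes alone. None had an unadjusted p under 0.05 in the authors' deposited table. Chrnb1, an acetylcholine receptor subunit, had the largest positive log2 fold among genes above 1 FPKM, at 1.16 and 1.502 FPKM. Dok7, below 1 FPKM and named after its values were seen, stood at 0.471 and 0.760 FPKM (log2 fold 0.59). Gadd45a, at 53.2 and 51.1 FPKM, and Runx1, at 21.8 and 21.4 FPKM, were the most expressed, and both are also expressed in blood cells. Chrna1, Musk and Chrnd, not tested by the authors and chosen after their values were seen, were low like Myog. Chrna1, another receptor subunit, was listed at 0.216 FPKM (0.0764 to 0.356) and 0.514 FPKM (0.262 to 0.765). Musk, the receptor kinase of the endplate, was listed at 0.105 FPKM (0 to 0.319) and 0.302 FPKM (0.0281 to 0.576). Chrnd, a further receptor subunit, lay the other way, at 0.0821 FPKM (0 to 0.375) in sedentary and 0.0181 FPKM (0 to 0.269) in running mice. For all 3 the intervals overlapped between the groups.

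Of the 2 atrophy ligase genes Trim63 and Fbxo32, a level could be read for Trim63 alone. Trim63 (chromosome 4, 134315120 to 134329629, plus strand) had 3.32 FPKM (2.12 to 4.52) in sedentary and 4.17 FPKM (2.77 to 5.56) in running mice. Its fold was 1.26 and its log2 fold 0.32, with q = 0.9997 in the authors' deposited table. The running value lay inside the sedentary interval. These levels rest on about 240 to 244 fragments in sedentary and 319 to 325 in running mice, depending on the coding transcript. The fast fibre markers in the same libraries had a median log2 fold of 0.28, and their part in the Trim63 value was not tested. Fbxo32 (chromosome 15, 58175879 to 58214932, minus strand) is listed at 0 in both groups, with both interval bounds at 0. So are Klhl38 and the antisense gene Gm15943, the other 2 genes that the tables place in the same locus (58175879 to 58324169). Pdpn, which has a locus of its own, is listed at 0 as well, as were 22.3% of protein-coding genes. Whether these zeros are absence or failed estimates was not tested, and no level is read for Fbxo32.

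In the FoxO and atrophy list, 2 of 23 genes were called higher and none lower, against 0.445% and 0.497% of all tested genes. Klf15, a transcription factor known to respond to glucocorticoids and to act on both ligase genes in muscle, rose from 2.01 FPKM (1.23 to 2.80) to 3.54 FPKM (2.39 to 4.69). Its fold was 1.76, with q = 0.00718 in the authors' deposited table, while the intervals overlapped. Ddit4, a stress-induced inhibitor of mTORC1 signalling, rose from 84.1 FPKM (68.5 to 99.6) to 122 FPKM (100.1 to 145), with the same q. Its fold was 1.46 and the intervals were just apart. The list's median log2 fold was 0.15, and 4 genes had an unadjusted p under 0.05 in the authors' deposited table, all higher. By the mean of both groups the most expressed genes were the autophagy gene Map1lc3b, at 110 and 117 FPKM with lower interval bounds of 0, and the ligase gene Nedd4, at 105 and 109 FPKM. Traf6, a ligase of inflammatory signalling, had the largest negative log2 fold, at 11.0 and 10.2 FPKM. None of the FoxO genes was called, though Foxo4 was among the 4 genes with an unadjusted p under 0.05. It had p = 0.033 and q = 0.760 in the authors' deposited table. Foxo1 was at 5.37 and 5.97 FPKM, Foxo3 at 32.5 and 33.3 FPKM, and Foxo4 at 19.7 and 23.5 FPKM, and they were named after their values were seen. Beside Klf15 and Ddit4, 5 of 11 glucocorticoid-responsive genes in these libraries were called higher, with a list median of 0.42. The median was 0.56 for 10 tested adipocyte markers, of which 3 were called higher. All these lists were chosen with earlier results of these data known, so their counts are a description. The part of the glucocorticoid-responsive and adipocyte genes in the Klf15 and Ddit4 calls was not tested.

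**Figure D2:**
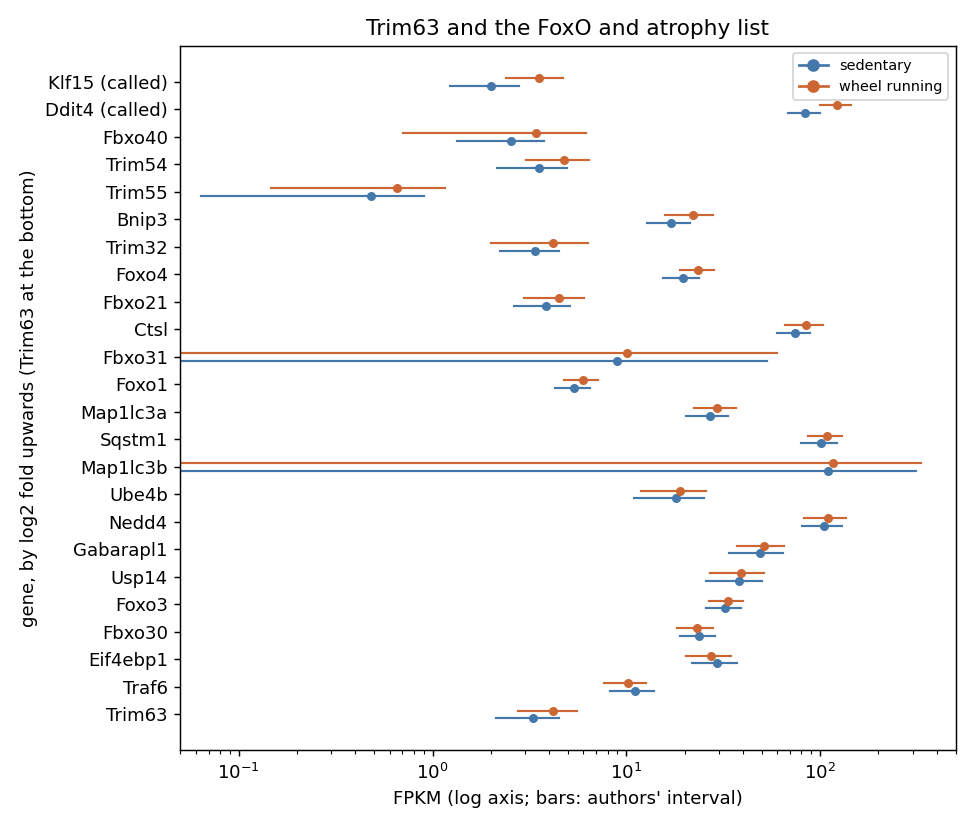
FPKM on a log axis of Trim63 (bottom) and the 23 genes of the FoxO and atrophy list in sedentary (blue) and running (orange) mice, with the authors' interval as bars; bars that reach the left edge have a lower bound of 0. Klf15 (2.01 and 3.54 FPKM) and Ddit4 (84.1 and 122 FPKM) are the 2 called genes.

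Mstn had the smallest p of the tested regulators and failed the correction. Mstn (chromosome 1, 53061640 to 53068079, plus strand) had 0.733 FPKM (0.349 to 1.12) in sedentary and 1.11 FPKM (0.611 to 1.601) in running mice. The fold was 1.51 and the log2 fold 0.53, with p = 0.0371 and q = 0.794 in the authors' deposited table. The running value lay inside the sedentary interval. About 73 to 81 fragments in sedentary and 117 to 130 in running mice stand behind it.

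The genes around myostatin and activin were mostly better measured and none of the 14 tested was called among 17 listed (median log2 fold 0.13). At an unadjusted p under 0.05 in the authors' deposited table, 2 were higher and none was lower. Smad7, an inhibitory SMAD, had the largest positive log2 fold, at 4.50 and 6.24 FPKM in sedentary and running mice (q = 0.394 in the authors' deposited table). Inhba, which encodes an activin subunit, had the largest negative one among the tested genes, at 7.22 and 6.52 FPKM. The protease gene Bmp1, which releases latent myostatin, was the most expressed, at 47.0 and 53.8 FPKM, followed by the receptor gene Tgfbr1, at 25.0 and 25.8 FPKM. Fst, which encodes the antagonist follistatin and was named after its values were seen, stood at 6.73 and 8.997 FPKM, above Mstn in both groups.

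Fndc5 was the one tested gene of the 10 with a negative log2 fold. Fndc5 (chromosome 4, 129136999 to 129144593, plus strand) had 1.44 FPKM (0.851 to 2.02) in sedentary and 1.33 FPKM (0.767 to 1.90) in running mice, from about 163 and 160 fragments. Its log2 fold was -0.10, with q = 0.9997 in the authors' deposited table, and its intervals overlapped almost wholly. Of 7 genes tied to irisin, 4 were tested and none was called, nor did any have an unadjusted p under 0.05 in the authors' deposited table. The integrin genes Itgb1, at 131 and 138 FPKM, and Itgb5, an irisin receptor subunit, at 25.5 and 27.3 FPKM, were the most expressed. Esrra, a nuclear receptor gene, had the largest negative log2 fold among the tested genes, at 18.2 and 17.9 FPKM. Ppargc1a, the coactivator that induces Fndc5 in muscle, was not tested, and is named after its values were seen. It was listed at 0.458 FPKM (0 to 1.05) and 0.293 FPKM (0 to 0.663).

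Il15 was the most abundant of the 9 genes with a level and had the widest interval of the tested ones. Il15 (chromosome 8, 82331632 to 82403222, minus strand) had 5.85 FPKM (2.41 to 9.28) in sedentary and 8.17 FPKM (3.71 to 12.6) in running mice. Its fold was 1.40 and its log2 fold 0.48, with q = 0.9997 in the authors' deposited table. The running value lay inside the sedentary interval. The half-width of the interval was 58.7% and 54.6% of the level, against a median of 26.3% and 26.2% over tested genes with a mean FPKM of at least 10. Il15 lies below that level, so this is not a comparison of like with like. The other tested genes of the 10 ranged from 36.2% (Trim63) to 52.4% (Mstn) in sedentary mice. In running mice they ranged from 33.6% (Trim63) to 50.5% (Myf6). Il15 has 10 annotated transcripts of unequal length, so no fragment number is given. Of 8 genes of the Il15 receptor and its signal path none was called or had an unadjusted p under 0.05 in the authors' deposited table. Their median log2 fold of -0.0065 turned to 0.0363 with both groups scaled to equal total FPKM. Il15ra, the receptor chain that presents the cytokine, had the largest positive log2 fold, at 8.71 and 10.8 FPKM. Jak1 was the most expressed, at 69.2 and 67.2 FPKM, and Stat3 had the largest negative log2 fold, at 43.8 and 40.1 FPKM.

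Markers of cell types that can make or receive Il15 were read beside it. Of 10 stroma and endothelium markers 1 was called higher, the leptin receptor gene Lepr at 27.9 and 39.7 FPKM, and the list median was 0.21. Their summed level was 1191 FPKM in sedentary and 1375 FPKM in running mice. Of 10 macrophage markers 1 was called lower, the chemokine receptor gene Ccr2 at 57.3 and 42.2 FPKM, with sums of 1169 and 1127 FPKM. Over all tested genes, 0.445% were called higher and 0.497% lower. The list median was nevertheless 0.07, and 6 of the 10 had a positive log2 fold. The 10 T and natural killer cell markers summed to 34.7 and 34.2 FPKM and none was called. In none of these 3 lists was a marker at 0 in both groups, and their part in the Il15 value was not tested.

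Among 20 other muscle-secreted factors, 19 were tested and none was called, with a median log2 fold of 0.07. At an unadjusted p under 0.05 in the authors' deposited table, 1 was higher and 2 were lower. Erfe, the erythroferrone gene of erythroblasts and muscle, had the largest difference, at 9.52 FPKM (0 to 22.4) in sedentary and 0.953 FPKM (0 to 2.56) in running mice, with q = 0.256 in the authors' deposited table. Both its intervals start at 0. Gdf15, a stress cytokine gene, had the largest positive log2 fold above 1 FPKM, at 1.25 and 1.79 FPKM. Sparc, at 3475 and 3642 FPKM, and Dcn, at 371 and 431 FPKM, were the most expressed, and both are matrix genes of bone and connective tissue.

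Since FPKM is scaled to length, the levels can be ordered for the 9 genes other than Fbxo32, for which no level is read. In sedentary mice the order was Il15, Trim63, Myf6, Fndc5, Mstn, Myod1, Myog and Pax7, followed by Myf5 at 0. The interval of each overlapped that of the next, except that Mstn stood apart from Myod1. In running mice Myog passed Myod1, and every neighbouring pair overlapped. Among tested genes ranked by mean FPKM, Il15 lay at percentile 40.7, Trim63 at 27.9, Myf6 at 17.1, Fndc5 at 12.9 and Mstn at 7.21.

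Some fibre genes were called higher while none of the 5 tested regulators was called, and this difference was not tested. Of all tested genes 0.941% were called, so no call among 5 genes is no result about them. All 18 fast fibre markers had a positive log2 fold. Of these, 7 had an unadjusted p under 0.05 in the authors' deposited table, 4 were called higher and none lower. The 10 slow fibre markers gave no call. Among them 5 had a positive log2 fold and 1 was higher at an unadjusted p under 0.05 in the authors' deposited table, with a median of 0.00081. The 4 called genes of the fast fibre list were Myh1, Myh2, Tcap and Ryr1. Tcap and Ryr1 are not confined to fast fibres, so the contrast between the lists cannot be read as one of fibre types. Ryr1, the calcium release channel of muscle, rose from 3.05 FPKM (2.12 to 3.98) to 4.53 FPKM (3.32 to 5.73), with q = 0.00718 in the authors' deposited table and overlapping intervals. Its FPKM was like that of Trim63, but equal FPKM does not mean equal fragment numbers in transcripts of unlike length. The fragments behind Ryr1 were not estimated, so these genes may not have been equally measurable. The log2 fold of Ryr1 was 0.55, beside 0.53 for Mstn, 0.32 for Trim63 and 0.23 for Myf6.

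**Figure D3:**
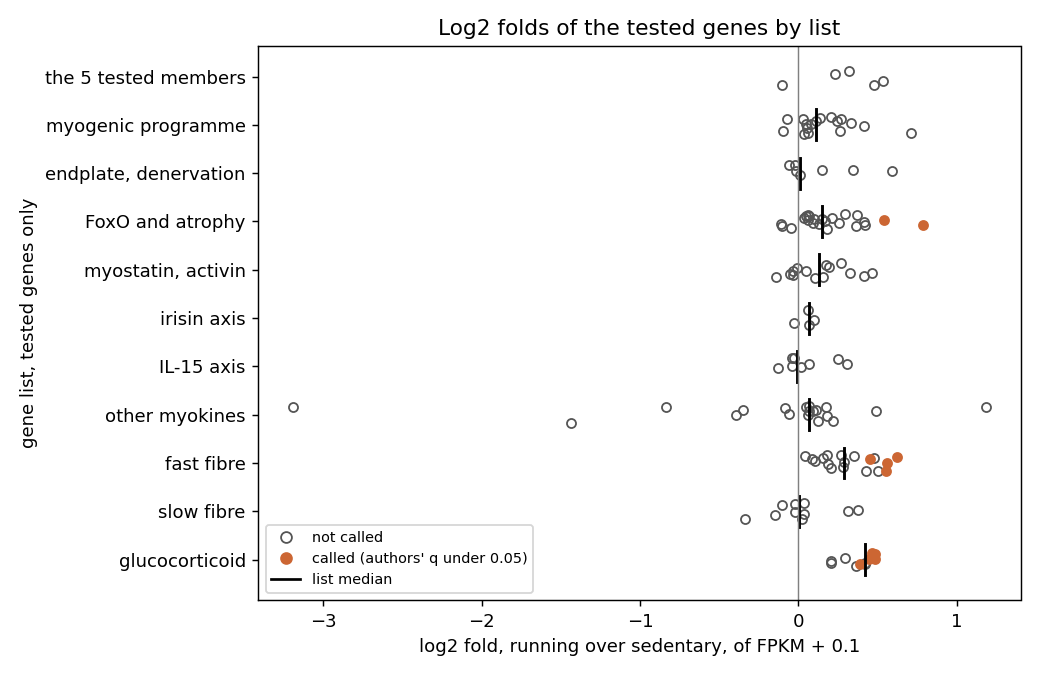
Log2 fold (running over sedentary, of FPKM + 0.1) of the tested genes, for the 5 tested regulators, for the 7 pathway lists around them and for fast fibre, slow fibre and glucocorticoid genes; filled points are called and black bars are list medians. The 5 regulators lie between -0.10 and 0.53 with no call, and the calls are 2 FoxO and atrophy, 4 fast fibre and 5 glucocorticoid genes.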

How the data were processed

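TRIzol was used on the femoral bone and a directional kit on its polyadenylated RNA, per the labels' protocols. Tools named there without roles or settings, per the submitters' processing notes, are Cufflinks 2.2.1, HISAT2 2.2.1, Trimmomatic 0.39 and SAMtools 1.10, on GRCm38. The authors deposited 1 FPKM per group with interval bounds. For each gene the authors also deposited a p-value and q-value, a log2 fold and a test statistic, a score. The layout is Cuffdiff's, per the file headers. Since 0 columns hold single libraries, mice could not be tested against each other, and the authors' q under 0.05 was taken as the call. That samples are separate mice comes from the study's design text; the labels number them only as replicates.

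Log2 folds were computed with a pseudocount of 0.1 (Python 3.11.15, pandas 2.3.3, scipy 1.17.1). Fragment numbers come from the step size of the lowest FPKM in single-exon, single-transcript genes over 1500 bp, with lengths shortened by 255 bp. Of the lowest multi-exon genes checked, 97.5% (sedentary) and 96.7% (running) fell within 0.5% of a step. This was tested on simulated data. Coordinates are GENCODE vM21 on GRCm38 (55224 of 55484 IDs matched). How strand and multi-mapping fragments were treated was not given in the sources used here.

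The genes and lists were chosen with earlier results of these data known. Beside the 10 genes, the rule named called list members, the 2 most expressed, and the largest log2 fold each way above 1 FPKM. The marker lists are given as counts with a few of their genes named, not by the whole rule. Pdpn, Klhl38, Mymx and Mymk were named after their values were seen. Where a symbol had several IDs the most expressed was used.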

Additional observations from a re-analysis of the deposited data

How the results depend on the processing

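No paired analysis was possible because each group has a single pooled FPKM per gene, which also left the planned fits and left-out replicates of single libraries not run. The count of 146 called genes fell to 69 when the intervals also had to be apart, which keeps a part of the same calls, and was 108 at q under 0.01, 190 at q under 0.1 and 150 with q recomputed above FPKM of 1. The 10 genes gave 0 calls under all 4 settings, and with a lowest q of 0.794 (Mstn) a call was hardly possible. For the 7 genes with a fold, 35 of 35 alternative log2 folds kept their sign, which could not have come out otherwise. A pseudocount cannot turn a sign, and the rescalings shifted log2 folds by at most 0.043, less than the smallest one (-0.10, Fndc5). The pseudocount moved the log2 folds of low genes: Myog ranged from 0.45 to 3.18, Myod1 from 0.14 to 1.04 and Mstn from 0.28 to 0.59. Rescaling to the same total added 0.04 to every log2 fold. Of 80 alternative list medians 5 turned sign, in 3 lists with medians near 0 (endplate and denervation, Il15 axis, T and natural killer cells). Levels below about 3 fragments per group lie within what a count of 0 would also allow.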

Other observations

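Zeros in both groups were common in the tables. Of 21974 protein-coding genes, 4905 (22.3%) had 0 FPKM in both groups. Of 10106 protein-coding genes whose listed locus is shared with another gene, 1135 (11.2%) were at 0 in both groups. The share was higher, 31.8%, among 11868 genes with a locus of their own. Of the 1135, 612, Fbxo32 and Klhl38 among them, lay in a locus where every gene was at 0. Pdpn has a locus of its own and was at 0 too. Fbxo32 and Klhl38 are both known from muscle, and in these samples fast fibre markers reached 445 FPKM. Gene-level zeros in these tables were not checked against reads.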
